A study of Mus musculus with 8 samples.

Results

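The 10 genes described here, Dcn, Lum, Ogn, Col1a1, Col1a2, Col3a1, Igf2, Slc6a13, Aldh1a2 and Slc22a6, are known as markers of the fibroblasts of the meninges, and were followed through hypothalamus of 4 Nestin-Pex5-/- and 4 wild type mice. They are 10 of the 18194 genes that could be read from a probe set annotated to 1 gene. Nestin-Pex5-/- mice carry a Pex5 gene flanked by loxP sites and a Cre recombinase under the Nestin promoter, which removes this receptor for the import of proteins into peroxisomes from cells derived from neural progenitors. All mice were 10 weeks old, untreated and of a Swiss Webster background, and 1 Affymetrix mouse genome array was made per mouse, replicates 7 to 10 from Nestin-Pex5-/- and replicates 1 to 4 from wild type mice. The values are log2 RMA values, so a difference of 1 is a doubling. The genes were proposed after an earlier look at these arrays had shown that the levels of meningeal genes were split among the Nestin-Pex5-/- arrays. The members were thus chosen by their levels in these same arrays, and their order and spread over the arrays are a description without a test. Of several probe sets the brightest over the 8 arrays stands for its gene, and the 10 genes have 18 probe sets in all.

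Meningeal fibroblasts lie in the membranes that wrap the brain and along the vessels that enter it. They lay down a matrix of fibrillar collagen, whose fibrils are spaced by small leucine-rich proteoglycans, and they secrete growth factors and retinoic acid. Their membrane transporters take part in the exchange of amino acids and organic anions between the cerebrospinal fluid and the blood. These cells come from mesoderm and neural crest and not from the neural tube, and they cover the ventral face of the hypothalamus, so the share of them in a dissected piece depends on how much membrane comes with it. In RNA from whole tissue, fewer fibroblasts and less RNA of these genes per fibroblast cannot be told apart.

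Wild type replicate 4 stood apart by its choroid plexus genes, with a mean of 6.85 over the 10 measured genes of that list where wild type replicates 1 to 3 had 8.26 to 8.76. Pex5 gave a log2 fold change of 0.01 (standard error 0.06) and -0.07 (standard error 0.07) on its 2 probe sets, but nothing shows whether these probes fall inside the stretch that Cre removes, so they are no check of the genotype labels. Genes of hypothalamic neurons were present in all arrays. Pmch, the melanin-concentrating hormone precursor, was at 12.18 to 12.75 in Nestin-Pex5-/- and 12.22 to 12.83 in wild type arrays, and Avp, the vasopressin precursor, at 11.13 to 11.84 and 11.07 to 11.76 in the same order. Oxt, the next brightest of that list, was at 11.53, 11.13, 10.89 and 10.64 in Nestin-Pex5-/- replicates 7, 8, 9 and 10. In wild type it was at 11.00 to 11.65, so replicates 9 and 10 lay below all wild type arrays. Over all 18194 genes, limma at a Benjamini-Hochberg adjusted p under 0.05 called 724 higher and 144 lower in Nestin-Pex5-/- hypothalamus, and 540 higher and 1088 lower when each array was scaled to Actb.

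The sequence just before the start of 5 of the genes is shown because these are the 3 with the widest range over the Nestin-Pex5-/- arrays (Ogn, Aldh1a2, Col3a1) and the 2 nearest to the mean profile of all 10 (Slc6a13, Col1a2). Each line holds the 120 bases before the RefSeq start on GRCm38.p6, plus strand, 5′ to 3′, and capitals mark a match to 1 of the motifs named below.
Ogn, chr13:49607895-49608014: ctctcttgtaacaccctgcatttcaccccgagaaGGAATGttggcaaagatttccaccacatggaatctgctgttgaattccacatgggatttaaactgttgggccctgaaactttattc
Aldh1a2, chr9:71215669-71215788: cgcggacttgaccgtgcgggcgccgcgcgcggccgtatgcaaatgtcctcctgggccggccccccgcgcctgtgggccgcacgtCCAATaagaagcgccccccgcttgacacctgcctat
Col3a1, chr1:45311418-45311537: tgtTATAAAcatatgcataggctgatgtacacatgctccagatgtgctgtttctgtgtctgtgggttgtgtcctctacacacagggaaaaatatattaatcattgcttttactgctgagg
Slc6a13, chr6:121300168-121300287: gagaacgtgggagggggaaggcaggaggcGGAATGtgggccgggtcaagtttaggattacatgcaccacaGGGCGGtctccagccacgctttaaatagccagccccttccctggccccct
Col1a2, chr6:4505498-4505617: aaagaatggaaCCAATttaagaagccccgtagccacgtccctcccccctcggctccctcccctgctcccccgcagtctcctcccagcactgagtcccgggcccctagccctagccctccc

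Windows of 300 bases, 250 before and 50 after a RefSeq start, were at hand for 7 of the 10 genes, all but Dcn, Lum and Col1a1, with 12 windows among them since Igf2 and Slc6a13 have several starts. They were searched on both strands for 7 motifs, which do not overlap in the printed stretches. GGAATG, the core bound by TEAD factors, was in 7 of the 12 windows (Col3a1, Igf2, Ogn, Slc22a6 and Slc6a13) and in 14.7% of all 32851 windows. CCAAT was in 6 of 12 and in 37.4% of all windows, GGGCGG in 4 of 12 and 35.7%, TATAAA in 2 of 12 and 13.6%, CAGCTG in 2 of 12 and 16.3%, and TGACCT in 2 of 12 and 16.3%. GTAAACA, a forkhead motif, was in none of the 12 and in 3.65% of all windows. In the lines above GGAATG starts 86 bases before the start of Ogn and 91 before that of Slc6a13, and CCAAT starts 36 bases before the start of Aldh1a2 and 109 before that of Col1a2. No motif was found in all 5 stretches, and the counts are a description of these windows.

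In all 10 genes the lowest of the 8 arrays was Nestin-Pex5-/- replicate 7, and in 9 of them the next was Nestin-Pex5-/- replicate 8, the exception being Lum. Among all 18194 genes these arrays were the 2 lowest in 7.28%. Nestin-Pex5-/- replicate 9 lay below all wild type arrays in none of the 10 genes and replicate 10 in 1, Dcn. Averaged over the 10 genes, the Nestin-Pex5-/- arrays stood at 7.12 (replicate 7), 7.35 (replicate 8), 8.44 (replicate 9) and 8.40 (replicate 10), against 8.20, 8.20, 7.94 and 8.57 in wild type replicates 1, 2, 3 and 4. The genotype therefore held both the lowest arrays and arrays at the level of wild type. Among wild type arrays replicate 4 was highest in 6 of the 10 genes and replicate 3 lowest in 8.

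**Figure D1:**
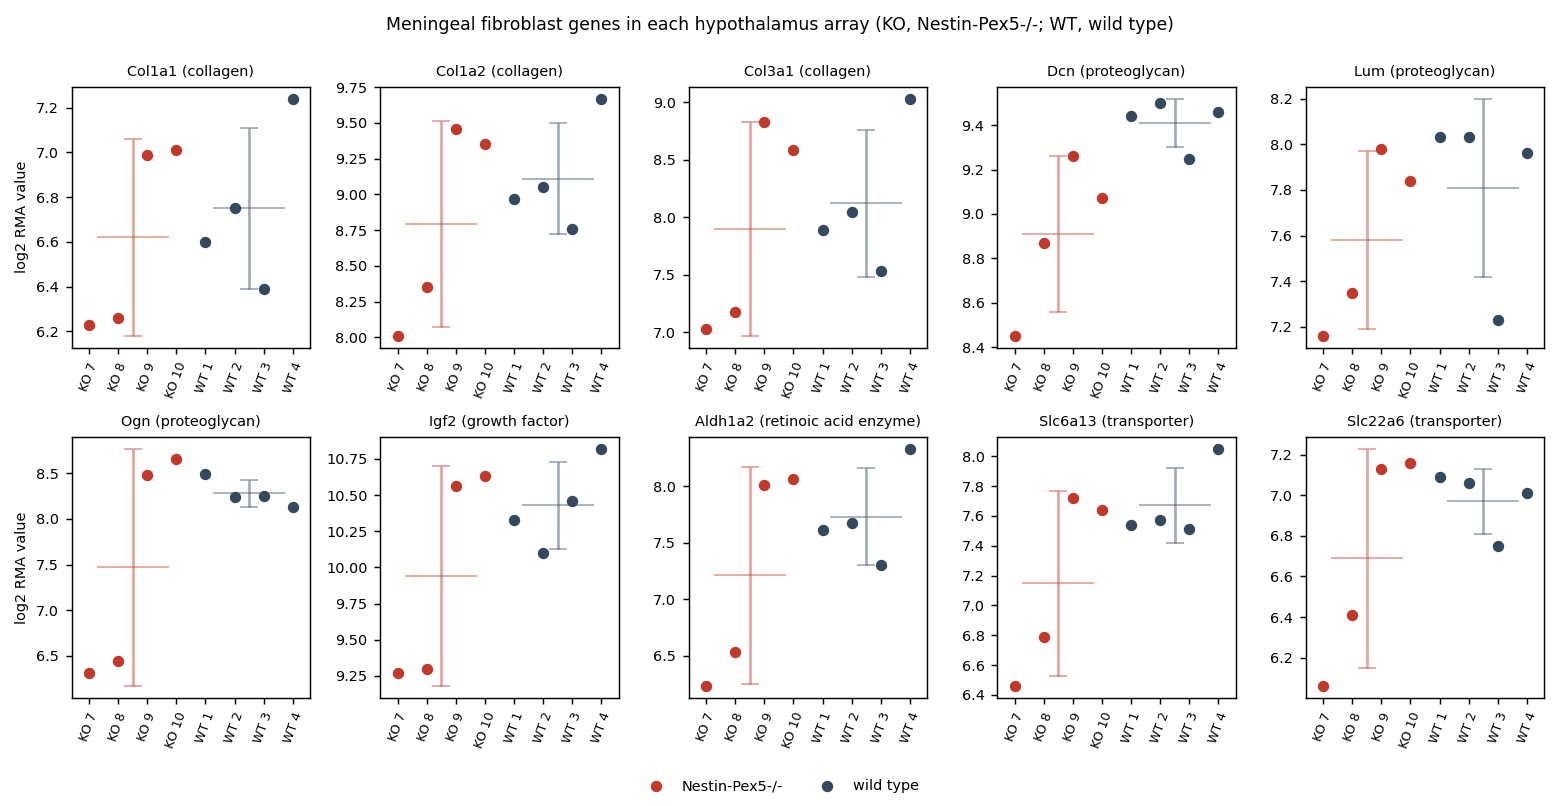
Log2 RMA value of each of the 10 meningeal fibroblast genes in each hypothalamus array (KO, Nestin-Pex5-/- replicates 7 to 10; WT, wild type replicates 1 to 4), each mouse a point, and the genotype's mean with its SD (n = 4 each). Replicate 7 is the lowest array in all 10 panels, and for Ogn replicates 7 and 8 are at 6.31 and 6.44 while the other 6 arrays lie between 8.13 and 8.66.

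The fibrillar collagens come first. Col1a1 and Col1a2 encode the chains of type I collagen and Col3a1 that of type III collagen, which is assembled into the same fibrils in soft tissue. Col1a1 was at 6.23, 6.26, 6.99 and 7.01 in Nestin-Pex5-/- replicates 7, 8, 9 and 10 and at 6.60, 6.75, 6.39 and 7.24 in wild type replicates 1 to 4. Col1a2 was at 8.01, 8.35, 9.46 and 9.35 in the Nestin-Pex5-/- arrays and at 8.97, 9.05, 8.76 and 9.67 in the wild type arrays. Col3a1 was at 7.03, 7.18, 8.83 and 8.58 in Nestin-Pex5-/- and at 7.89, 8.05, 7.53 and 9.03 in wild type. In each of the 3 collagens Nestin-Pex5-/- replicates 7 and 8 lay below every wild type array and replicates 9 and 10 inside the wild type range, so the genotypes overlapped. The Nestin-Pex5-/- arrays spanned 1.72-fold for Col1a1, 2.74-fold for Col1a2 and 3.48-fold for Col3a1, and the wild type arrays 1.80-fold, 1.87-fold and 2.83-fold for the same genes. Wild type replicate 4 was the highest array of all 8 in each collagen.

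Nestin-Pex5-/- over wild type, the log2 fold change was -0.13 for Col1a1 (standard error 0.23, 95% interval -0.64 to 0.39), -0.32 for Col1a2 (standard error 0.33, -1.06 to 0.42) and -0.22 for Col3a1 (standard error 0.45, -1.24 to 0.80). Each interval holds 0 and reaches both directions. Without Nestin-Pex5-/- replicate 7 the value of Col1a1 was 0.0061 and that of Col3a1 0.0706, and without wild type replicate 4 they were 0.0408 and 0.0806, so even the sign of these 2 collagens rests on single arrays.

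The 3 small leucine-rich proteoglycans did not share 1 pattern in wild type, although all were lowest in Nestin-Pex5-/- replicate 7. Dcn encodes decorin, which binds collagen fibrils and limits their width, and Lum encodes lumican, a proteoglycan of the same family whose gene lies next to that of decorin on chromosome 10. Dcn was at 8.45, 8.87, 9.26 and 9.07 in Nestin-Pex5-/- replicates 7, 8, 9 and 10 and at 9.44, 9.50, 9.25 and 9.46 in wild type replicates 1 to 4. Lum was at 7.16, 7.35, 7.98 and 7.84 in the Nestin-Pex5-/- arrays and at 8.03, 8.03, 7.23 and 7.96 in the wild type arrays. Dcn thus came closest to separating the genotypes, with only Nestin-Pex5-/- replicate 9 above the lowest wild type array, by 0.01. In Lum wild type replicate 3 was as low as the low Nestin-Pex5-/- arrays, between replicates 7 and 8.

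Ogn, which encodes osteoglycin, a small leucine-rich proteoglycan also called mimecan, had the widest split of the 10. It was at 6.31, 6.44, 8.48 and 8.66 in Nestin-Pex5-/- replicates 7, 8, 9 and 10 and at 8.49, 8.24, 8.25 and 8.13 in wild type. Relative to the lowest wild type array replicates 7 and 8 stood at -1.82 and -1.69, whereas replicate 10 was above the highest. The Nestin-Pex5-/- arrays spanned 5.10-fold and the wild type arrays 1.29-fold, and the SD was 1.3 in Nestin-Pex5-/- and 0.15 in wild type (n = 4 each). By the range of its Nestin-Pex5-/- arrays Ogn ranked 10 among all 18194 genes, and by the range of its wild type arrays 5557. As the genes were chosen for a split among these arrays, the rank is a description and no further result. The log2 fold change was -0.81 for Ogn (standard error 0.51, 95% interval -1.96 to 0.34), -0.50 for Dcn (standard error 0.15, -0.85 to -0.16) and -0.23 for Lum (standard error 0.22, -0.73 to 0.28).

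Igf2 encodes a growth factor that is expressed from the paternal allele in most tissues and that the meninges and choroid plexus go on making in the adult. It was at 9.27, 9.30, 10.56 and 10.63 in Nestin-Pex5-/- replicates 7, 8, 9 and 10 and at 10.33, 10.10, 10.46 and 10.82 in wild type replicates 1 to 4. Relative to the lowest wild type array replicates 7 and 8 stood at -0.83 and -0.81, and replicates 9 and 10 were inside the wild type range. Wild type replicate 4, in which the choroid plexus genes were lowest, had the highest Igf2 of the 8 arrays. Its log2 fold change was -0.49 (standard error 0.33, 95% interval -1.23 to 0.25).

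Aldh1a2 encodes the dehydrogenase that makes retinoic acid from retinal. It was at 6.23, 6.53, 8.01 and 8.06 in Nestin-Pex5-/- replicates 7, 8, 9 and 10 and at 7.61, 7.67, 7.30 and 8.33 in wild type replicates 1 to 4. The gap was wide again, replicates 7 and 8 standing at -1.07 and -0.77 relative to the lowest wild type array, and the Nestin-Pex5-/- arrays spanned 3.56-fold against 2.05-fold in wild type. Its log2 fold change was -0.52 (standard error 0.42, 95% interval -1.47 to 0.43).

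Both transporters followed the same order. Slc6a13 encodes a sodium-coupled transporter that takes up GABA and taurine, and Slc22a6 encodes an organic anion exchanger also known from the kidney. Slc6a13 was at 6.46, 6.79, 7.72 and 7.64 in Nestin-Pex5-/- replicates 7, 8, 9 and 10 and at 7.54, 7.57, 7.51 and 8.05 in wild type. Slc22a6 was at 6.06, 6.41, 7.13 and 7.16 in the Nestin-Pex5-/- arrays and at 7.09, 7.06, 6.75 and 7.01 in the wild type arrays. For Slc22a6 replicates 9 and 10 were above all 4 wild type arrays while replicates 7 and 8 were below all of them, so the wild type values lay between those of the Nestin-Pex5-/- mice. The log2 fold change was -0.51 for Slc6a13 (standard error 0.27, 95% interval -1.12 to 0.10) and -0.28 for Slc22a6 (standard error 0.23, -0.80 to 0.23).

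None of the 10 genes passed an adjusted p of 0.05 in limma's comparison of 4 Nestin-Pex5-/- with 4 wild type arrays, where 4.77% of all genes passed (3.98% higher, 0.791% lower). With the unadjusted p of limma, 0.05 gave 1 of the 10, Dcn (unadjusted p = 0.00905, adjusted p = 0.119), where 16.9% of all genes passed. The exact two-sided permutation test over the 70 assignments of the arrays gave 0.057 for Dcn and 0.29 to 0.71 for the other 9, its smallest possible p being 0.029. All 10 log2 fold changes were below 0, with a median of -0.41 against -0.033 over all genes. The fits share the same 8 arrays, so this is 1 pattern seen in 10 genes and not 10 separate results. The arrays of the genotypes overlapped in all 10 genes, and in all but 11.1% of the 18194 genes. Because the genes were chosen for levels split among the Nestin-Pex5-/- arrays, the overlap and the lack of calls follow in part from the choice. The negative values come from the same arrays, and none of this is a further result about the genes. Scaled to Actb, which moved the median over all genes to -0.161, Dcn had an adjusted p of 0.0145 from limma and passed. Left out together, Nestin-Pex5-/- replicates 7 and 8 took the negative sign of 9 of the genes with them, whose values then ran from 0.01 for Slc6a13 to 0.58 for Col3a1, and Dcn alone kept it at -0.25 (adjusted p = 0.264). Those arrays were chosen for their low values of such genes.

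**Figure D2:**
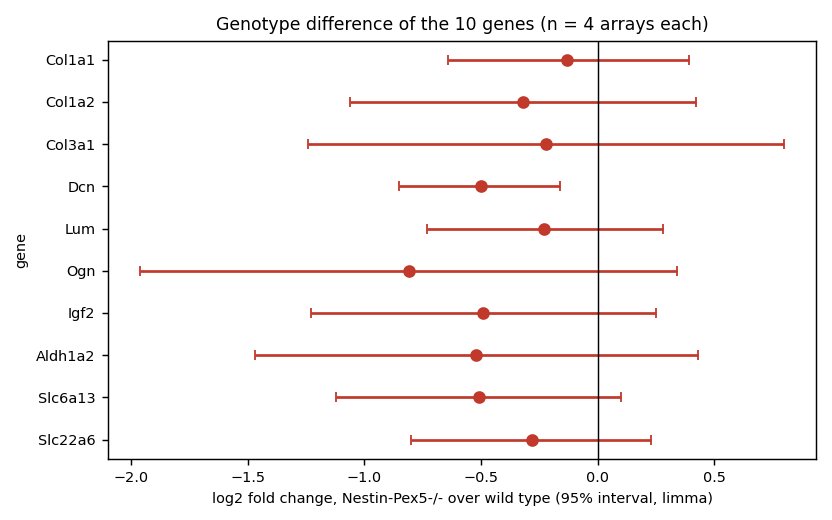
Log2 fold change between Nestin-Pex5-/- and wild type (positive, higher in Nestin-Pex5-/-) for the 10 genes with its 95% interval from limma (n = 4 arrays per genotype). All 10 points lie below 0 and 9 of the 10 intervals hold 0, the exception being Dcn with an interval of -0.85 to -0.16, which is not adjusted for the number of genes.

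Mice of 1 genotype differed widely. The SD of the 4 Nestin-Pex5-/- arrays was 0.35 for Dcn, the smallest, and 1.3 for Ogn, the largest, and that of the 4 wild type arrays ran from 0.11 for Dcn to 0.64 for Col3a1. The Nestin-Pex5-/- SD was 8.28 times the wild type SD for Ogn, 3.51 times for Slc22a6, 3.16 times for Dcn, 2.52 times for Igf2, 2.45 times for Slc6a13, 2.22 times for Aldh1a2 and 1.85 times for Col1a2. It was 1.45 times for Col3a1 and 1.21 times for Col1a1, and in Lum the SDs were alike at 0.39 each. The wide wild type spread of the collagens lay between replicates 3 and 4. Since the genes were chosen for a split among the Nestin-Pex5-/- arrays, their wider Nestin-Pex5-/- SDs follow from the choice.

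Of the 18 probe sets 15 had Nestin-Pex5-/- replicates 7 and 8 as their 2 lowest arrays. In the dimmer probe sets of Col1a1, Igf2 and Slc22a6 replicate 8 was the lower of these, and not replicate 7. The other probe set of Ogn gave 4.79, 5.47, 7.84 and 7.81 in Nestin-Pex5-/- replicates 7, 8, 9 and 10, with 7.51, 7.39, 7.38 and 7.40 in wild type replicates 1 to 4. A dimmer probe set of Col1a2 gave 5.21, 5.45, 6.69 and 6.62 in the Nestin-Pex5-/- arrays and 6.08, 6.29, 5.80 and 7.06 in the wild type arrays. In both the split was as wide as on the main probe set or wider. The exceptions were the probe set of Lum and the dimmest probe sets of Col1a2, with a mean of 3.81, and Dcn, with a mean of 4.76, whose Nestin-Pex5-/- arrays spanned only 0.24 and 0.15. The dimmer probe set of Igf2 gave 5.03, 4.95, 5.43 and 5.43 in Nestin-Pex5-/- and 5.57, 5.46, 5.46 and 5.86 in wild type, and was the only 1 of the 18 whose genotypes did not overlap (exact permutation test, two-sided, p = 0.029). Its limma adjusted p over all probe sets was 0.219, and its nearest arrays differed by 0.03.

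**Figure D3:**
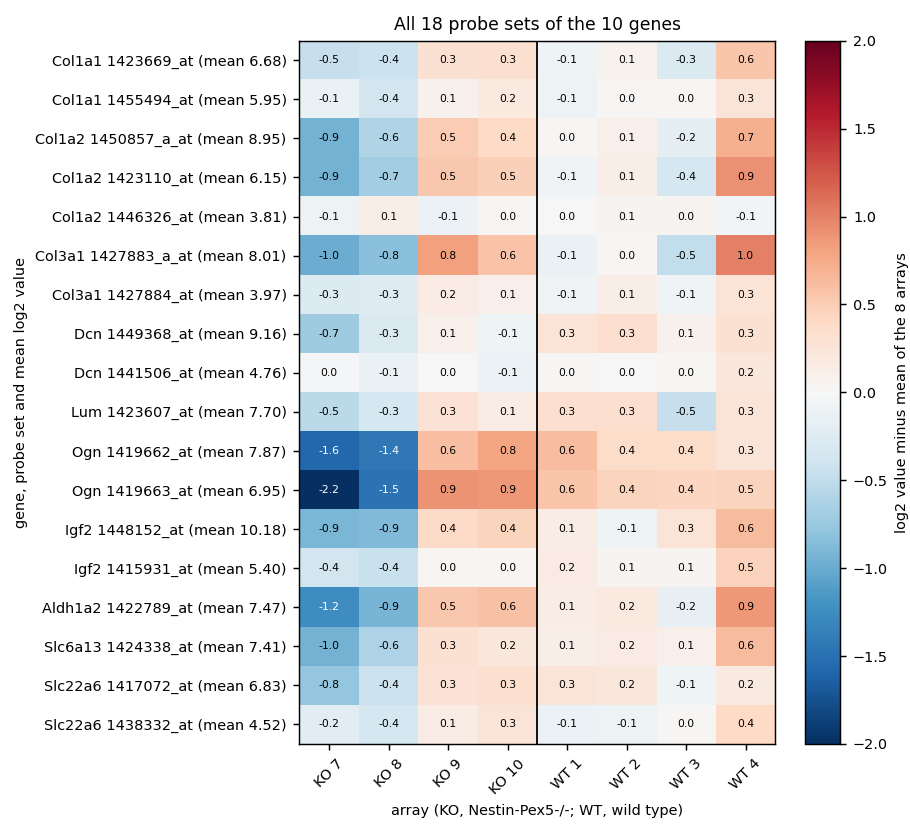
Log2 value minus the mean of the 8 arrays for all 18 probe sets of the 10 genes (rows, with the mean level of each) in each array (columns; KO, Nestin-Pex5-/-; WT, wild type). The columns of Nestin-Pex5-/- replicates 7 and 8 are blue in nearly all rows, deepest for the dimmer Ogn probe set, which read 4.79 in replicate 7, while replicates 9 and 10 and wild type replicate 4 are mostly red.

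Genes with the most similar profile were sought among all other genes by the root mean square difference between the centred profile of a gene over the 8 arrays and the mean centred profile of the 10. A gene with the same value in all arrays has a difference of 0.49 on this scale, the 10 genes themselves ran from 0.10 for Slc6a13 to 0.47 for Ogn, and 39 other genes were under 0.30. Ogn is far from the mean because its split is wider. The nearest other gene was Slc13a4, a sodium-coupled sulfate transporter of the meninges and choroid plexus, at 0.10. It measured 7.36, 7.50, 8.81 and 8.71 in Nestin-Pex5-/- replicates 7, 8, 9 and 10, with 8.67, 8.50, 8.37 and 8.84 in wild type replicates 1 to 4. Then came Islr, a secreted leucine-rich protein (0.13), Crabp2, a carrier of retinoic acid inside cells (0.15), and Thbd, the anticoagulant receptor thrombomodulin (0.16). Igfbp6, a binding protein with a preference for Igf2, was at 0.16, the amino acid transporter Slc6a20a at 0.17, and the organic anion transporter Slc22a8 at 0.18. Osr1, a zinc finger transcription factor of mesenchyme, Itih2, a plasma protein chain that binds hyaluronan, and the lectin receptor Asgr1 were each at 0.18. They were picked for a profile that is low in Nestin-Pex5-/- replicates 7 and 8 and overlaps between the genotypes, so their low values there and their adjusted p from limma, 0.481 to 0.783, follow from the choice and are no further result.

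**Figure D4:**
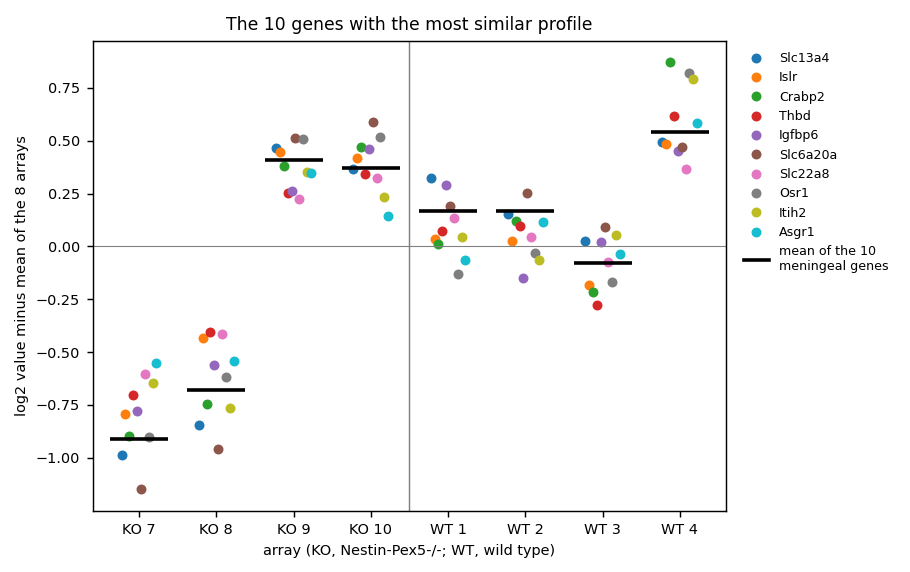
Log2 value minus the mean of the 8 arrays for the 10 other genes nearest to the mean profile of the meningeal fibroblast genes (coloured points) and that mean (black bars) in each array (KO, Nestin-Pex5-/-; WT, wild type). The bars stand at -0.91 and -0.68 in Nestin-Pex5-/- replicates 7 and 8, at 0.41 and 0.37 in replicates 9 and 10, and at 0.54 in wild type replicate 4.

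Lists of genes with neighbouring roles differed in how many members had the same 2 lowest arrays as the 10 genes. Beside 7.28% of all genes, Nestin-Pex5-/- replicates 7 and 8 were the 2 lowest arrays in 7 of 13 other transporters of the leptomeninges, 6 of 14 other collagens, 4 of 11 other small leucine-rich proteoglycans, 7 of 16 genes of the insulin-like growth factor axis, 4 of 15 transcription factors of meningeal mesenchyme, 4 of 15 genes of retinoic acid metabolism and response, and 5 of 20 other matrix glycoproteins. The count was 3 of 9 for the arachnoid barrier, 3 of 17 for the scar response and 2 of 19 for collagen processing and crosslinking, and a list of another tissue, the anterior pituitary, had 3 of 8. The lists were chosen with earlier results of these data known, so these counts are a description without a test. Slc13a4, Slc6a20a, Slc22a8, Crabp2, Igfbp6 and Osr1, named above for their similar profile, are among the genes counted. Fmod, a proteoglycan of collagen fibrils, was at 6.42, 7.28, 8.99 and 9.12 in Nestin-Pex5-/- replicates 7, 8, 9 and 10 and at 8.90, 8.60, 8.29 and 9.25 in wild type replicates 1 to 4. Bgn, which encodes the proteoglycan biglycan, was at 7.51, 7.62, 8.34 and 8.18 in the Nestin-Pex5-/- arrays and at 8.24, 8.01, 8.06 and 8.41 in the wild type arrays. Ptgds, the prostaglandin D synthase made by arachnoid cells and oligodendrocytes, was at 13.23, 13.75, 14.21 and 14.31 in Nestin-Pex5-/- and at 14.07, 14.09, 14.05 and 14.37 in wild type. In these 3 genes too only replicates 7 and 8 fell below the wild type range. Igfbp2, a binding protein of both insulin-like growth factors, was at 9.34, 9.51, 10.37 and 10.35 in Nestin-Pex5-/- and at 10.10, 9.62, 9.98 and 10.06 in wild type, so replicates 9 and 10 were above all wild type arrays. The forkhead factor Foxc1, which the meninges need to form and which was picked out after its values were seen, was at 6.83, 7.12, 7.64 and 7.67 in Nestin-Pex5-/- and at 7.57, 7.65, 7.26 and 7.87 in wild type.

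In the genotype comparison, where 3.98% of all genes were higher and 0.791% lower, the lists of collagens, proteoglycans, glycoproteins, growth factor axis, transporters, transcription factors, retinoic acid and arachnoid genes each had at most 1 gene higher and 1 lower, and such single calls lie near the share among all genes. No gene passed among 11 other small leucine-rich proteoglycans (median log2 fold change -0.139), 16 genes of the insulin-like growth factor axis (-0.108), 13 other leptomeningeal transporters (-0.189) and 9 genes of the arachnoid barrier (-0.095), where the median over all genes was -0.033. Igfbp5, Slc13a3, Slc23a2 and Gjb6, the other bright genes of these lists, were among them. In none of these genes were replicates 7 and 8 the 2 lowest arrays. Igfbp5 was at 11.00, 11.21, 11.57 and 11.69 in Nestin-Pex5-/- replicates 7, 8, 9 and 10 and at 10.38 to 11.13 in wild type. In the same order Slc13a3 was at 8.90, 9.12, 9.26 and 9.41 and at 8.42 to 9.02. Slc23a2 was at 10.64, 10.52, 10.48 and 10.50, and Gjb6 at 10.52, 10.35, 10.41 and 10.51 in Nestin-Pex5-/-. Of 14 other collagens 1 was higher (7.14%) and none lower (median -0.106). It was Col16a1, a collagen that sits on the surface of fibrils, at 8.33, 8.29, 8.30 and 8.39 in Nestin-Pex5-/- and 7.68, 7.67, 7.67 and 7.19 in wild type (1.71-fold, adjusted p = 0.00244 from limma). Its 4 Nestin-Pex5-/- arrays were level with each other, unlike those of the 3 main collagens. Of 15 transcription factors of meningeal mesenchyme 1 was higher (6.67%, median -0.198), the homeobox gene Prrx2 (1.73-fold, adjusted p = 0.00628 from limma), and of 15 genes of retinoic acid metabolism 1 was higher (6.67%, median -0.086), the retinal reductase Dhrs3 (1.53-fold, adjusted p = 0.0135 from limma). The call of Dhrs3 was lost without Nestin-Pex5-/- replicate 8 or 10 (adjusted p up to 0.0509). Of 20 other matrix glycoproteins Thbs2, a matricellular regulator of fibril assembly, was higher (2.08-fold, adjusted p = 0.00909 from limma) and Fbln5, a protein of elastic fibres, was lower (0.681-fold, adjusted p = 0.00402 from limma), though not with the mean of its probe sets (adjusted p = 0.0502). The median of this list was -0.024.

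Some enzymes that modify and crosslink collagen were higher in Nestin-Pex5-/- arrays. Of 19 genes of collagen processing and crosslinking 5 were higher (26.3%, where 3.98% of all genes were) and none lower, with a median log2 fold change of 0.104. Lox, the oxidase that crosslinks collagen and elastin, was at 7.92, 8.63, 7.53 and 8.23 in Nestin-Pex5-/- replicates 7, 8, 9 and 10 and at 6.39, 6.13, 6.06 and 6.12 in wild type replicates 1 to 4, a rise of 3.74-fold (adjusted p = 3.87e-04 from limma). It was high in all 4 Nestin-Pex5-/- arrays, replicates 7 and 8 included, and the genotypes did not overlap. The prolyl hydroxylase subunit P4ha3 was at 1.56-fold (adjusted p = 0.026) and the lysyl hydroxylase Plod1 at 1.45-fold (adjusted p = 0.0359 from limma), calls that were lost without any 1 array other than Nestin-Pex5-/- replicate 7 or wild type replicate 4 (adjusted p up to 0.0863 and 0.112). The lysyl hydroxylase Plod3 and the prolyl hydroxylase P3h2 were the other members called, at 1.26-fold and 1.32-fold, the call of P3h2 being lost without the same 6 arrays (adjusted p up to 0.0826). Scaled to Actb, Plod1, Plod3 and P3h2 did not pass limma (adjusted p of 0.0519, 0.0662, 0.0551). Quantile-normalized again, P4ha3, Plod1 and P3h2 did not pass limma (adjusted p of 0.0576, 0.0533, 0.0671). With the mean of its probe sets Plod1 did not pass either (adjusted p = 0.186 from limma).

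Of 17 genes of the scar response 4 were higher (23.5%, where 3.98% of all genes were) and none lower (0.791% of all genes). Half-way in size among the 17 lay a log2 fold change of 0.063 (median). Like the other lists, the scar list was chosen with earlier results of these data known, so such counts are a description without a test. Timp1, an inhibitor of matrix metalloproteinases, was at 7.56, 8.04, 8.55 and 8.34 in Nestin-Pex5-/- replicates 7, 8, 9 and 10 and at 5.53, 5.30, 5.75 and 5.79 in wild type, 5.77-fold higher (adjusted p = 4.68e-05 from limma). Tgfb1, a cytokine that stimulates collagen synthesis in fibroblasts and that microglia also make, was 2.54-fold higher, and its receptors Tgfbr1 and Tgfbr2 were 2.45-fold and 1.91-fold higher. Each of these 4 genes passed without any 1 array. Periostin, type I collagen and fibronectin are known scar components, but Postn of this list (log2 fold change 0.62, adjusted p = 0.21) and Fn1 of the glycoprotein list (0.25, adjusted p = 0.622), both picked out with their values known, stayed above the threshold. Ccn2 (log2 fold change -1.13, adjusted p = 0.0675 from limma) and Ccn1 (-0.42, adjusted p = 0.165) of the scar list, picked out likewise, went the other way and did not pass.

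Genes of other cells of the meninges and of vessels were compared with the 10 in the same arrays. For 14 genes of border-associated macrophages the mean log2 value was 6.54, 6.61, 6.91 and 6.83 in Nestin-Pex5-/- replicates 7, 8, 9 and 10. In wild type arrays it was 6.31 to 6.65. Replicates 7 and 8 were thus the lower ones of their genotype. They were the 2 lowest of all 8 arrays in 1 of the 14 genes, where 7.28% of all genes had this order. Among its defining genes, picked out after their values were seen, Lyve1 was at 5.20 to 5.27 in Nestin-Pex5-/- and 5.17 to 5.37 in wild type, and Mrc1 at 6.10, 6.31, 6.94 and 6.83 in Nestin-Pex5-/- replicates 7, 8, 9 and 10, with 6.22 to 6.56 in wild type. Ms4a7, the only gene of this list that passed (3.10-fold, adjusted p = 0.00905 from limma), had the opposite order to the meningeal genes, at 8.26, 7.83, 6.96 and 6.92 in the Nestin-Pex5-/- arrays, and 5.66 to 6.21 in wild type. For 7 MHC class II genes the mean of the Nestin-Pex5-/- arrays was 6.59, 6.64, 8.13 and 7.41, replicate 9 being highest, and 6.46 to 6.93 in wild type, and none of the 7 passed. Its invariant chain Cd74 was at 8.52, 8.11, 11.28 and 10.36 in the Nestin-Pex5-/- arrays and 7.46 to 7.98 in wild type (adjusted p = 0.156 from limma). The part of these cells in the levels of the 10 genes was not tested.

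Vessel wall genes were compared next. Nestin-Pex5-/- replicates 7 and 8 were the 2 lowest arrays in 6 of 14 genes of pericytes and vascular smooth muscle and in 1 of 12 endothelial genes. The mean of the mural list was 7.40 to 7.55 in Nestin-Pex5-/- and 7.59 to 7.84 in wild type arrays, which did not overlap, and that of the endothelial list 8.30 to 8.46 and 8.29 to 8.60 in the same order. List means did not overlap either, but were higher in Nestin-Pex5-/-, for collagen processing (7.41 to 7.54 against 7.26 to 7.34) and the scar response (7.96 to 8.27 against 7.76 to 7.90). The median log2 fold changes of these lists were only 0.104 and 0.063. Lox (log2 fold change 1.9) is part of the former mean and Timp1 (2.53) of the latter. Among single genes 11.1% did not overlap, and no such share was worked out for list means. All 20 lists were looked at, so this is a description. The 1 gene of the mural and endothelial lists that passed was Vtn, which encodes vitronectin and is strong in brain pericytes (0.724-fold, adjusted p = 0.0299 from limma). Its call was lost without Nestin-Pex5-/- replicate 7 or 8 or wild type replicate 1 or 2 (adjusted p up to 0.0989). Alas2 and Epb42, the red blood cell genes with the highest levels, did not pass. The mean of the 4 measured genes of that list was 5.04, 5.01, 5.27 and 5.27 in Nestin-Pex5-/- replicates 7, 8, 9 and 10. In wild type it was 5.09 to 5.47. Means on these arrays include background signal.

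Neighbouring tissues that a dissection of the hypothalamus can include were looked at last. For 10 choroid plexus genes the mean of the Nestin-Pex5-/- arrays, from replicate 7 to replicate 10, was 7.97, 7.65, 8.27 and 7.85, and the mean was 8.76, 8.36, 8.26 and 6.85 in wild type replicates 1 to 4. Ttr, the transthyretin that choroid plexus secretes, was at 14.02 to 14.47 in all Nestin-Pex5-/- arrays and 14.47 to 14.59 in wild type replicates 1 to 3, but at 10.51 in wild type replicate 4. The array lowest in choroid plexus genes was therefore the highest for 6 of the 10 meningeal genes, and none of the 10 choroid plexus genes had Nestin-Pex5-/- replicates 7 and 8 as its 2 lowest arrays. Clic6, a chloride channel protein of the same epithelium, was at 8.38 to 9.02 in Nestin-Pex5-/- and at 8.23 in wild type replicate 4, with 9.56 to 9.84 in wild type replicates 1 to 3. Of 10 genes of the ependyma 3 were lower (30%, where 0.791% of all genes were; median log2 fold change -0.404), namely Rarres2, Ak7 and Hydin, at 0.728-fold, 0.681-fold and 0.802-fold by limma (adjusted p 0.0175, 0.011, 0.0493). The call of Hydin was lost without any 1 array (0.0644 to 0.127), that of Rarres2 without 4 of the 8 (up to 0.0649) and when probe sets that can match several transcripts were left out (0.617), and that of Ak7 was kept without any 1 array but not at a threshold of 0.01 (adjusted p = 0.011 from limma). The anterior pituitary list had a mean of 5.65, 5.73, 5.40 and 5.42 in the Nestin-Pex5-/- arrays, replicates 7 and 8 being the higher ones, and 5.25 to 5.77 in wild type. Prl, the prolactin gene, picked out with its values known, was at 6.36, 7.15, 4.49 and 4.68 in the Nestin-Pex5-/- arrays and at 4.58 to 4.80 in wild type, so it was high in the same arrays in which the 10 genes were low. The higher list mean of replicates 7 and 8 came largely from Prl. Gh, the growth hormone gene, was at 6.19, 6.49, 6.08 and 5.98 in the Nestin-Pex5-/- arrays and at 5.75 to 6.56 in wild type. In 3 of the 8 pituitary genes replicates 7 and 8 were the 2 lowest arrays. Cga, the hormone alpha subunit, ran from 6.62 to 7.38 in Nestin-Pex5-/- and from 4.83 to 7.85 in wild type. The mean of 7 Schwann cell genes was 6.57 to 6.68 in Nestin-Pex5-/- and 6.34 to 6.74 in wild type. No gene of the pituitary and Schwann cell lists passed. Of 16 genes of hypothalamic neurons only the regional transcription factor Nkx2-1 was lower (0.804-fold, adjusted p = 0.037 from limma, up to 0.117 without single arrays), and the mean of the list was 9.24, 8.93, 8.75 and 8.75 in the Nestin-Pex5-/- arrays and 8.91 to 9.21 in wild type. How much of each neighbouring tissue was in a piece was not measured, and its part in the levels of the 10 genes was not tested.

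**Figure D5:**
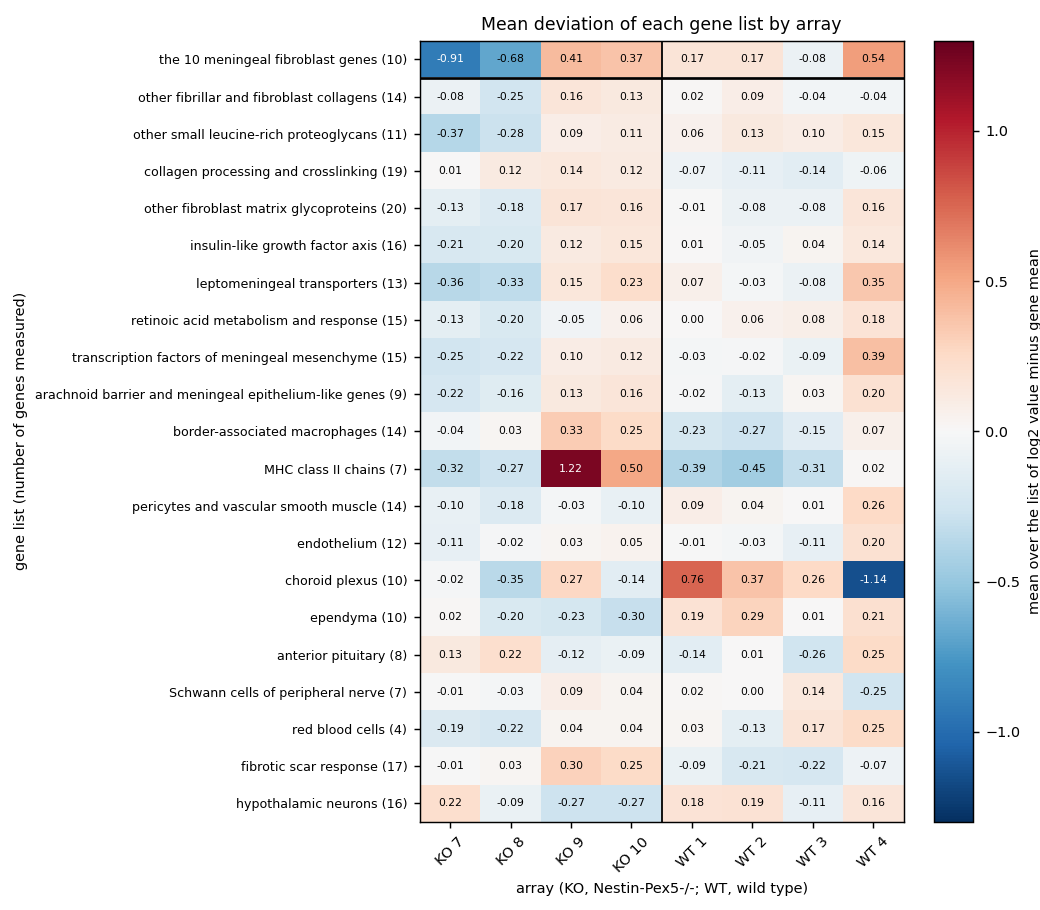
Mean over each gene list of the log2 value minus the gene's mean over the 8 arrays (rows, with the number of genes measured) in each array (columns; KO, Nestin-Pex5-/-; WT, wild type). The top row of the 10 meningeal fibroblast genes reads -0.91 and -0.68 in Nestin-Pex5-/- replicates 7 and 8, the leptomeningeal transporters -0.36 and -0.33, and the choroid plexus row is lowest in wild type replicate 4 at -1.14.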

How the data were processed

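Hypothalamus RNA of 8 mice was analysed, 4 per genotype, 1 array each. The log2 values were deposited by the authors after RMA, named in the submitters' processing notes without a version, which corrects background, quantile-normalizes the arrays and summarises each probe set; quantile normalization fixes the distribution of each array, so a shift of all genes cannot be seen. The array analysis is given by reference, and further steps are not given in the sources used here. No detection call was used, so the background part of dim probe sets is unknown. Whether the mice were littermates is not in the labels.

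The platform's annotation pairs 34958 of 45101 probe sets with 1 gene, and 34754 symbols were brought to RefSeq GRCm38.p6 by gene identifier. Each of 18194 genes was read from its brightest probe set. The genotypes were compared by limma 3.58.1 in R 4.3.3 (genotype as the only term, eBayes defaults, two-sided, Benjamini-Hochberg over all genes), and the fit was tested on simulated data. Single genes also had an exact permutation test (scipy 1.17.1). Precision is limited by the number of arrays. The genes and the 20 lists were chosen with earlier results of these data known. Of 276 genes in the lists 248 were measured. Named are all 10 genes, up to 3 called members of each list by size of change or else the 2 brightest where described, and the 10 most similar profiles; others are marked. Promoter windows are from RefSeq. Alternatives were the probe set, a filter on dim genes, 3 scalings, eBayes with trend and robust settings, array weights, a threshold of 0.01, each array left out, and Nestin-Pex5-/- replicates 7 and 8 left out.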

Additional observations from a re-analysis of the deposited data

Results flagged for a closer look

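Of 36 groups of 4 arrays (18 probe sets in each genotype) 4 held a sample far from the others by Dixon's ratio, the gap to the nearest array over the range of the group, above the 95% critical value. Chance flags about 1 in 20 such groups, and the probe sets share the same arrays. All 4 were wild type. Lum was low in wild type replicate 3 (ratio 0.915), at 7.23, where wild type replicates 1, 2 and 4 had 7.96 to 8.03. Slc6a13 was high in wild type replicate 4 (ratio 0.904), at 8.05 against 7.51 to 7.57. The dim probe set of Dcn was high in wild type replicate 4 (ratio 0.842), at 4.98 against 4.76 to 4.79, and the dimmer probe set of Ogn in wild type replicate 1 (ratio 0.837), at 7.51 against 7.38 to 7.40. The split of the Nestin-Pex5-/- arrays gave no flag, since with 2 arrays low and 2 high no single array lies alone.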

How the results depend on the processing

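No paired analysis was possible because the genotypes share no replicate number. None of the 10 genes was called under any setting but scaling to Actb, which called 1 (Dcn) lower. Over all genes, scaling to Actb called 1088 lower, leaving out genes below the median level 416 higher (5 of the 10 genes then remained in the fit), array weights 1351 higher and 699 lower, and a threshold of 0.01 called 467 higher and 20 lower. With single arrays left out, 543 to 1080 genes were higher and 46 to 331 lower. Of the list genes, 14 were higher and 6 lower; this became 7 higher without dim genes, 21 lower scaled to Actb, 24 higher and 17 lower with array weights, 1 lower at 0.01, and 10 to 18 higher and 2 to 10 lower with single arrays left out. Without single arrays the log2 fold change ran from -0.25 to 0.04 for Col1a1 and from -0.53 to 0.08 for Col3a1, the highest (0.0408 and 0.0806) without wild type replicate 4. With array weights it was 0.15 for Col1a1, 0.10 for Col1a2 and 0.36 for Col3a1. Without Nestin-Pex5-/- replicates 7 and 8 it was 0.25 for Col1a1, 0.29 for Col1a2, 0.58 for Col3a1, 0.10 for Lum, 0.29 for Ogn, 0.17 for Igf2, 0.31 for Aldh1a2, 0.0139 for Slc6a13 and 0.17 for Slc22a6. Of the 10 most similar genes 8 were shared when each array was centred on its own genotype and 6 with the mean of a gene's probe sets. The causes were not tested.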
